A study of Saccharomyces cerevisiae with 18 samples.

Results

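The yeast genes described here are those of the CUP1 metallothionein repeat and its copper regulation. They were picked by name: the metallothionein copies CUP1-1 (YHR053C) and CUP1-2 (YHR055C), the short frames YHR052W-A, YHR054C and YHR054W-A of the same repeat, the neighbouring RSC30 (YHR056C), the second metallothionein CRS5 (YOR031W), and CUP2 (YGL166W), which encodes the copper-sensing activator of CUP1. Of these 8 named genes, 7 are among the 6612 transcripts of the table, and 6 are among the 6309 transcripts tested. The choice was made with differences between the strains known, so levels compared between strains are given as a description with no test. CRS5 was not analysed here. YHR054C stood at 0 in 17 of 18 libraries and at 4.11e-10 TPM at most, so it was not tested.

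The study measured polyadenylated RNA in 18 cultures of Saccharomyces cerevisiae. RM11 is a vineyard-derived strain and YJM975 a clinical isolate, each labelled as a homozygous a/α diploid, with no further allele or agent in any group. Each strain grew in S-CSM, a synthetic medium with a complete supplement, holding 2% glucose, glycerol or ethanol, with 3 biological replicates in each of the 6 groups. Cultures of 5 mL were taken in exponential growth at an OD600 of 0.5 to 1.0, and the labels name no added copper. All glucose libraries carried one run label and all glycerol and ethanol libraries another, so glucose against the other media cannot be told apart from the run, and ethanol minus glycerol is the comparison within a run.

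Metallothioneins are small, cysteine-rich proteins that bind copper ions and keep free copper low. In budding yeast, copper binds the activator Ace1, the product of CUP2, which then switches on CUP1, CRS5 and SOD1. When copper is scarce, a second factor, Mac1, switches on the high-affinity transporters CTR1 and CTR3 and the metalloreductases FRE1 and FRE7, so the metallothionein and the uptake genes are known to move in opposite directions as copper changes. The number of CUP1 repeats is known to vary between strains. It was not measured here.

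In R64, the S288C reference assembly, both CUP1 copies lie on the minus strand of chromosome VIII, at 212535 to 212720 and at 214533 to 214718. The coding bases of both copies are identical, and the repeats are spaced 1998 bases apart, inside an identical run of 1988 bases. The coding sequence is shown because its copies cannot be told apart by reads. It holds 12 cysteine codons, given in capitals, among 62 codons with the stop, and is read on the minus strand at chrVIII:212535-212720.
CUP1-1 coding: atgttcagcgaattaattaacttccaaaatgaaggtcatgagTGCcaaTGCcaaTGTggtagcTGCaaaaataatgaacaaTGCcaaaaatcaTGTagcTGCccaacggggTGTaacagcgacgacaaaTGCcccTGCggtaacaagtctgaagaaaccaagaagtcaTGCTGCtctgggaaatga
The 300 bases before the start codon, at chrVIII:212721-213020 on the minus strand, are shown because this region is where Ace1 is known to act. Capitals mark 4 matches to the published Ace1 consensus, a motif of 10 letters searched on both strands. Their first bases lie at −274, −245, −201 and −185, where −1 is the base before the start codon, and the last of them is on the opposite strand of the gene.
CUP1-1 promoter: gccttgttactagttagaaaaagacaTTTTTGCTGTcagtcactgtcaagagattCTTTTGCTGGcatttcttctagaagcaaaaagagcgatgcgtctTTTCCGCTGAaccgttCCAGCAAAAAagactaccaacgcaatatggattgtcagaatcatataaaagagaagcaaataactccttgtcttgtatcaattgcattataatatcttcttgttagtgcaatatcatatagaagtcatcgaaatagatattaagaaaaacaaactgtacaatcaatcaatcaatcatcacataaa
Of 6001 windows of this length, 19.11% hold at least 1 such match, 2.47% hold 2 or more, and 0.03% (2 windows, those of the CUP1 copies) hold 4 or more. Whether CUP1 sites entered the published consensus was not examined, so these shares are a description and no test. The windows of CUP2 and CRS5 hold 1 match each, and that of RSC30 holds none.

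Mac1 is known to bind the letters TTTGCTCA or TTTGCGCA. These were searched on both strands in the same 300-base windows, of which 1.48% hold TTTGCTCA and 0.45% hold TTTGCGCA, and neither is in the CUP1 window. Stretches from 2 metalloreductase promoters are shown because both genes are described below. The matches are in capitals, and those of FRE7 overlap on opposite strands. The FRE1 stretch is chrXII:568267-568320 and the FRE7 stretch chrXV:40556-40595, both on the plus strand of R64.
FRE1: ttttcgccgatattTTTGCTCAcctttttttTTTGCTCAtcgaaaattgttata
FRE7: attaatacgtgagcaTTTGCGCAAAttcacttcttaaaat
CTR1 holds its 2 TTTGCTCA matches further out, with first bases at −334 and −312, in a window of 600 bases. CTR3 and MAC1 hold neither set of letters in either S288C window, which does not show what their RM11 and YJM975 promoters hold. In windows of that length, 2.9% hold TTTGCTCA at least once and 0.07% hold it 2 or more times. All of these letters come from S288C, not from RM11 or YJM975, and a match or its absence is a description of the letters only.

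**Figure D1:**
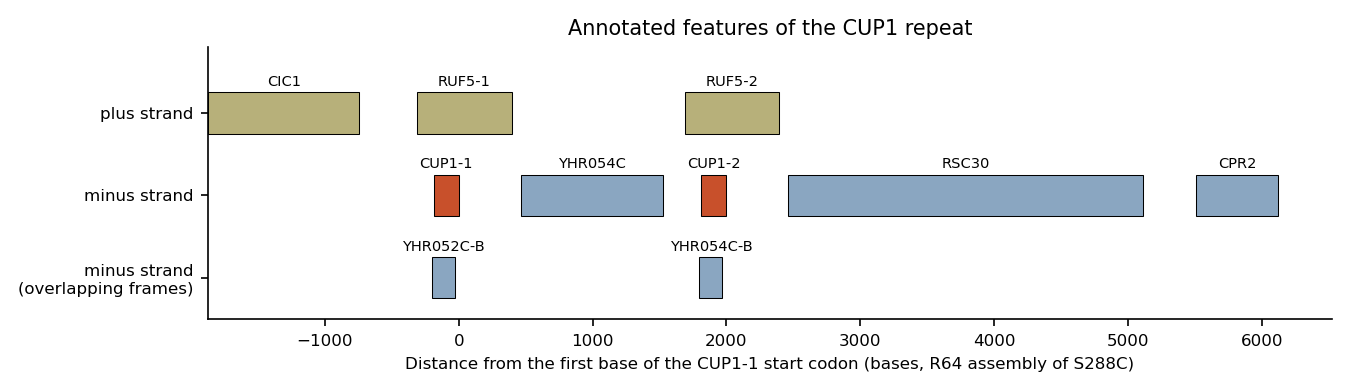
Annotated features around the CUP1 repeat in the R64 assembly, by distance in bases from the first base of the CUP1-1 start codon (x axis) and by strand (rows). CUP1-1 and CUP1-2 (orange) recur 1998 bases apart, each overlapped by a RUF5 RNA on the other strand, with YHR054C between them and RSC30 on the far side.

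The repeat limits what its transcripts can show. CUP1-1 and CUP1-2 held the same value in all 18 libraries, as did YHR052W-A and YHR054W-A, so the 6 tested genes hold 4 distinct sets of values, and each pair is given once, under its first name. YHR054C, at 213185 to 214249, is a partial copy of RSC30, at 215183 to 217834, and all 1035 of its 31-base words occur there. Of the 31-base words of RSC30, 39.5% occur in YHR054C. The RSC30 level can therefore include reads from YHR054C, and this was not tested. The 710-base RNAs RUF5-1 and RUF5-2 overlap each CUP1 coding sequence over its whole length on the other strand. The annotated frame YHR052C-B, not analysed here, overlaps 158 bases of CUP1-1 on the same strand. With no strand setting given, CUP1 and RUF5 reads cannot be told apart here. YHR052W-A and YHR054W-A are not in the annotation used, so no position is given for them.

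Library totals lay between 999999.4 and 1000000.2 TPM, as TPM always does, so the number of reads behind a value is unknown and the values have no counting error beside them. Replicates correlated with r from 0.9945 to 0.9977 across genes. Several reference levels went against the medium labels. HXK2, the hexokinase gene known to be expressed on glucose, averaged 71.3 ± 6.78 TPM (SD, n = 3) in RM11 libraries labelled glycerol and only 2.30 TPM in those labelled glucose, with 5.08 TPM in YJM975 libraries labelled glucose. ICL1, a glyoxylate cycle gene known to be repressed by glucose, averaged 1791 TPM in RM11 libraries labelled glucose and 510.5 TPM in those labelled glycerol. FBP1, a gluconeogenesis gene known for the same repression, averaged 809 TPM and 157 TPM in those groups, and 353 TPM and 63.0 TPM in the same media in YJM975. In YJM975, ICL1 went with the labels, with its lowest mean in glucose (401 TPM, against 463.8 TPM in glycerol and 1870.0 TPM in ethanol). Groups are therefore named by medium as labelled. Genes that a/α diploids are known to repress were also present: 13 such markers summed to between 306.3 and 941.5 TPM per library, most of it MFA1 and MFA2, the a-factor genes, and without them no marker passed 86.8 TPM, reached by AGA2, which was picked after its values were seen. Group means of STE2, the α-factor receptor, ranged from 4.76 to 11.1 TPM, and those of STE3, the a-factor receptor, from 0.723 to 3.82 TPM. The part of the medium labels and of the ploidy markers in the results below was not tested.

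CUP1, the metallothionein itself, was far higher in the RM11 cultures labelled glycerol than in any other group. A CUP1 copy stood at 5150.3, 4581 and 4374 TPM in RM11 in glycerol, at 525, 508 and 548 TPM in glucose, and at 451, 388 and 362 TPM in ethanol. All 3 RM11 glycerol libraries lay above all 15 other libraries of the study. In YJM975 the copy stood at 787, 845 and 749 TPM in glucose, at 705, 697 and 714 TPM in glycerol, and at 941, 1058 and 921 TPM in ethanol, a far narrower range. In order of group means, RM11 glycerol (4702 ± 402 TPM, SD, n = 3) was followed by YJM975 ethanol (973 ± 73.9), YJM975 glucose (793 ± 48.1), YJM975 glycerol (705 ± 8.21), RM11 glucose (527 ± 20.0) and RM11 ethanol (400.2 ± 45.6). The libraries of neighbouring groups in this order did not overlap.

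The TPM of both copies together made up 1.03, 0.916 and 0.875% of all TPM in the RM11 glycerol libraries and between 0.0724 and 0.2116% in the others. From 16 to 21 genes stood above a CUP1 copy in RM11 glycerol libraries, and from 129 to 453 in the others. These are shares of RNA, so more CUP1 RNA and less of other RNA cannot be told apart in them. Nor can more cells with CUP1 RNA be told apart from more CUP1 RNA per cell.

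**Figure D2:**
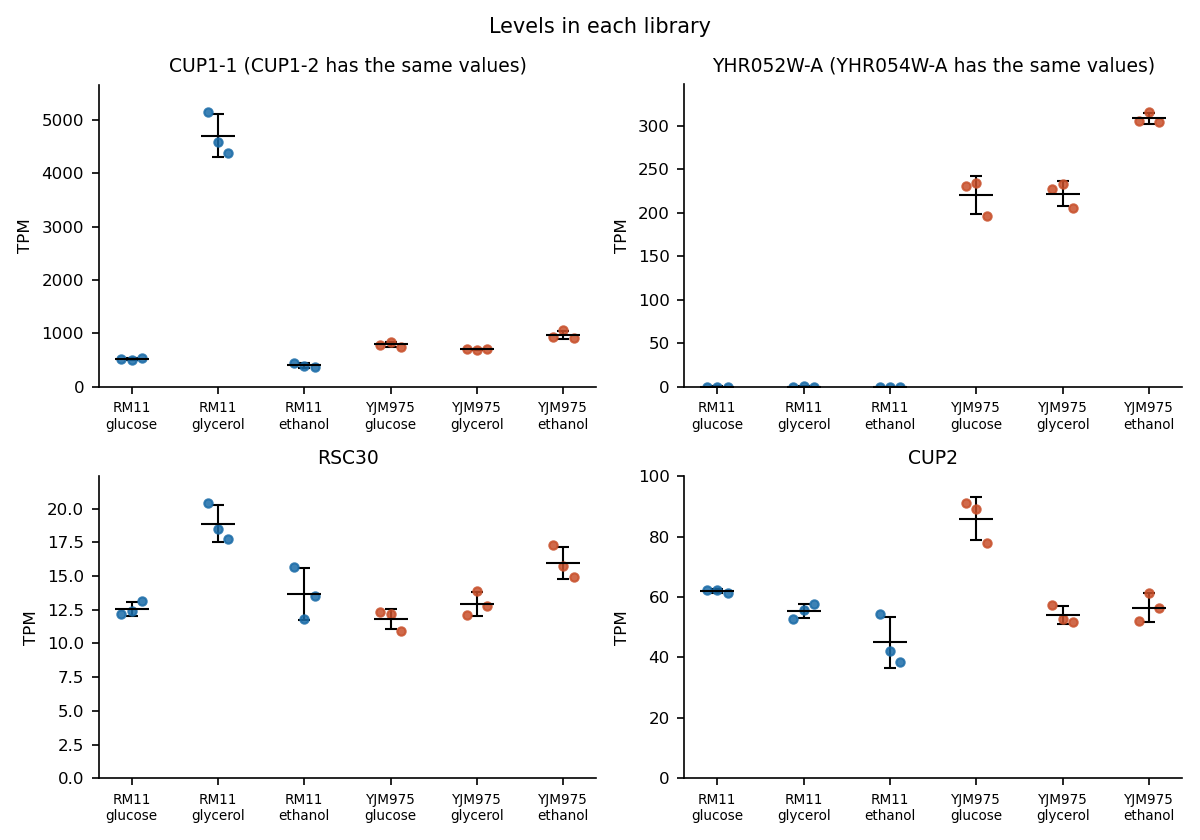
TPM in each library (points, linear axes from 0) of the distinct tested genes, with the mean and SD of 3 libraries per group (bars), for RM11 (blue) and YJM975 (orange). CUP1-1 stood at 4374 to 5150.3 TPM in RM11 glycerol and at no more than 1058 TPM elsewhere, and YHR052W-A at 196 to 316 TPM in YJM975 and near 0 in RM11.

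Between media, differences are in log2(TPM + 1) ± SE from limma, fitted over all genes, and a gene is called at a Benjamini-Hochberg adjusted p below 0.05. In RM11, CUP1 rose 8.92-fold from glucose to glycerol (log2 difference 3.15 ± 0.08, limma adjusted p = 6.31e-16), or 2.92 relative to the median gene, which itself moved by 0.23. Of the 6309 genes, 75 rose more. It was 11.75-fold higher in glycerol than in ethanol, the comparison within a run (ethanol minus glycerol −3.55 ± 0.08, limma adjusted p = 4.8e-16, −3.33 relative to a median of −0.23), and 31 genes fell more. From glucose to ethanol it fell by 0.40 ± 0.08 (limma adjusted p = 2.16e-04). These 3 calls held, with their sign, under every alternative setting run.

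In YJM975, CUP1 was 1.227-fold higher in ethanol than in glucose (log2 difference 0.29, limma adjusted p = 0.00207), a direction that turned to −0.15 when each library was centred on its median. From glycerol to ethanol it rose by 0.46 ± 0.08 (limma adjusted p = 3.84e-05), which fell to 0.04 (adjusted p = 0.644) with that centring. Glycerol minus glucose was −0.17 ± 0.08 and was not called (limma adjusted p = 0.0555). It was called with median centring (adjusted p = 0.0268), in the fit of only the groups compared (0.0231) and in 5 of the 18 fits without a single library (0.0286 to 0.0458), and was 0.005 when rescaled without the 50 most abundant genes.

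Set side by side, the YJM975 change of CUP1 minus its RM11 change was −3.32 ± 0.11 for glycerol minus glucose and 4.02 ± 0.11 for ethanol minus glycerol. These values are built from the strain levels known when the genes were chosen, so they are a description. As levels, RM11 stood 6.666-fold above YJM975 in glycerol, while YJM975 stood 1.505-fold above RM11 in glucose and 2.432-fold above it in ethanol.

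Over the distinct sets of values, 2 of 4 rose and none fell from glucose to glycerol in RM11, where 81.7% of all genes were called, 53% higher and 28.7% lower. From glucose to ethanol in RM11, 2 of 4 fell and none rose, against 69.4% of all genes called, 32% higher and 37.4% lower. From glycerol to ethanol in RM11, 3 of 4 fell and none rose, against 75.5% of all genes called, 21.4% higher and 54.1% lower. A change of 2-fold or more was seen in CUP1 only among the 4, in both comparisons, against 16.1% of all genes called higher by that much from glucose to glycerol and 12.5% called lower by that much from glycerol to ethanol. In YJM975, 1 of 4 fell from glucose to glycerol, where 83.7% of all genes were called, 41.2% higher and 42.6% lower. From glucose to ethanol 3 rose and 1 fell, against 86.8% of all genes called, 56.5% higher and 30.3% lower. From glycerol to ethanol 3 rose, against 77.1% called, 64% higher and 13.1% lower. None of the YJM975 differences reached 2-fold. Over all genes, 78.3% had a called difference between the strains' changes for glycerol minus glucose, 76.8% for ethanol minus glucose and 80.8% for ethanol minus glycerol. Most genes were called in each comparison, so these counts by themselves are no result about the 4. YHR052W-A reached at most 0.687 TPM in RM11 and was not called there, so it cannot inform the RM11 counts.

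The short frames YHR052W-A and YHR054W-A were present in YJM975 and near 0 in RM11. In YJM975 a frame stood at 231, 235 and 196 TPM in glucose, at 227, 233 and 205 TPM in glycerol, and at 305, 316 and 304 TPM in ethanol. In RM11 it was listed at 0 in 6 of 9 libraries and reached at most 0.687 TPM, in a glycerol library. No YJM975 library came near any RM11 library. The frame passed the filter on low values only through YJM975. Its level divided by that of a CUP1 copy was 0.277 ± 0.016, 0.315 ± 0.024 and 0.318 ± 0.017 in YJM975 in glucose, glycerol and ethanol (SD, n = 3), and at most 0.000664 in RM11, the glycerol libraries with their high CUP1 included. Whether reads from YJM975 and RM11 map equally to the frame's sequence was not tested.

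Within YJM975 the frames were highest in ethanol. They rose from glucose to ethanol by 0.49 ± 0.15 (limma adjusted p = 0.00701) and from glycerol to ethanol by 0.48 ± 0.15 (limma adjusted p = 0.00955), and the ethanol libraries lay above all the others. Both calls were lost under each of the 3 other scalings, with a lowest limma adjusted p of 0.053. They were also lost when the copies were summed (0.0704 and 0.0849) and with a pseudocount of 0.1 TPM (0.453 and 0.482). The SE is pooled over all 6 groups, the RM11 libraries near 0 included, and was 0.606 with that pseudocount. Glycerol minus glucose was 0.01 (limma adjusted p = 0.947), and those groups overlapped.

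RSC30, a zinc-cluster subunit of the chromatin remodeller RSC whose gene borders the repeat, was low in every group. It stood at 20.4, 18.5 and 17.8 TPM in RM11 in glycerol, at 12.2, 12.4 and 13.1 TPM in glucose, and at 15.6, 11.8 and 13.5 TPM in ethanol. The RM11 glycerol libraries were the highest of the study in TPM. In YJM975 RSC30 stood at 12.3, 12.2 and 10.9 TPM in glucose, 12.1, 13.9 and 12.8 TPM in glycerol, and 17.3, 15.7 and 14.9 TPM in ethanol. With median centring, the mean log2 level in RM11 glycerol (3.938) lay below that of each YJM975 group (3.973 to 4.111). The same held with quantile normalization (3.818, against 3.933 to 4.152). RSC30 rose from glucose to glycerol in RM11 by 0.55 ± 0.09 (limma adjusted p = 1.42e-05), or 0.32 relative to the median gene, and this call held under the 3 other scalings. It fell from glycerol to ethanol by 0.45 (limma adjusted p = 1.61e-04), a call lost with median centring (adjusted p = 0.0775) and quantile normalization (0.559). In YJM975 its rise from glucose to ethanol of 0.41 (limma adjusted p = 2.96e-04) reversed to −0.04 and −0.20 under those scalings.

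Most other RSC subunits were also higher in RM11 glycerol than in RM11 glucose. Of 14 other tested subunits, 13 rose and none fell, against 53% of all genes called higher and 28.7% lower, with a median of 0.90 against 0.23 for all genes. STH1, the ATPase, went from 11.6 to 27.3 TPM (1.17 ± 0.07, limma adjusted p = 2.77e-11), RSC8 rose by 1.16 and RSC1 by 1.16, each more than RSC30. From glycerol to ethanol 13 of the 14 fell and 1, RSC9, rose (0.21, limma adjusted p = 0.00298), against 54.1% of all genes lower and 21.4% higher. In YJM975, 5 rose and 5 fell from glucose to glycerol, against 41.2% of all genes called higher and 42.6% lower. All 14 rose from glycerol to ethanol there, where 64% of all genes were called higher (median 0.52, against 0.36 for all genes).

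CUP2, the gene of the Ace1 activator, did not follow CUP1. The RM11 glucose libraries held 62.4, 62.3 and 61.2 TPM of CUP2, against 52.7, 55.8 and 57.6 TPM in glycerol and 54.5, 42.1 and 38.5 TPM in ethanol. Its RM11 glycerol libraries thus lay below the glucose libraries and not above them. Glycerol minus glucose in RM11 was −0.16 ± 0.10 and was not called (limma adjusted p = 0.138). It was called, and lower, under each of the 3 other scalings (−0.44 to −0.25, highest adjusted p 0.0207), in the fit of only the groups compared (0.012), and without the first RM11 ethanol library (0.0432). From glucose to ethanol CUP2 fell in RM11 by 0.47 (limma adjusted p = 4.12e-04), and this held under the other scalings.

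In YJM975, CUP2 stood at 91.0, 89.2 and 77.8 TPM in glucose, the highest of the 6 groups, at 57.5, 52.9 and 51.7 TPM in glycerol, and at 52.0, 61.3 and 56.3 TPM in ethanol. It fell from glucose to glycerol by 0.66 ± 0.10 (limma adjusted p = 6.47e-06) and to ethanol by 0.60 (limma adjusted p = 1.89e-05), and both held under the other scalings. Within the run, glycerol and ethanol differed by 0.06 in YJM975 and were not called (limma adjusted p = 0.563), with the sign turning to −0.36 and −0.26 under median centring and quantile normalization. In RM11, CUP2 fell from glycerol to ethanol by 0.31 with overlapping libraries (limma adjusted p = 0.00884), a call lost under the 3 other scalings and without the third RM11 ethanol library (adjusted p = 0.0678).

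The uptake genes CTR1, CTR3 and FRE7 were lowest where CUP1 was highest, while other genes of copper uptake, such as MAC1 and FRE1, were lowest elsewhere. CTR1, the main high-affinity copper transporter of the plasma membrane, stood at 44.5, 49.1 and 49.8 TPM in RM11 in glycerol, against 323, 324 and 293 TPM in glucose and 231, 208 and 216 TPM in ethanol. In YJM975 it stood at 399, 399 and 355 TPM in glucose, 309, 349.5 and 327 TPM in glycerol, and 188, 171 and 174 TPM in ethanol, all above RM11 glycerol. It fell from glucose to glycerol in RM11 by 2.69 ± 0.07 (limma adjusted p = 6.71e-16), and was higher in ethanol than in glycerol by 2.17 ± 0.07 (limma adjusted p = 1.65e-14).

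CTR3 encodes the second high-affinity transporter. Its RM11 glycerol libraries held 128, 126 and 124 TPM, against 629, 629.6 and 635 TPM in glucose and 544, 516 and 514 TPM in ethanol. In YJM975 the order of media differed, with 194, 194 and 171 TPM in glucose, 484, 494 and 539 TPM in glycerol, and 341, 339 and 317 TPM in ethanol. From glucose to glycerol CTR3 fell in RM11 by 2.32 ± 0.05 (limma adjusted p = 3.65e-16) and rose in YJM975 by 1.44 ± 0.05 (limma adjusted p = 6.33e-14). That difference between the strains' responses was 3.75 ± 0.08 (limma adjusted p = 1.21e-16). The uptake list was chosen with earlier results of these data known, so this is no independent evidence.

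FRE7, a metalloreductase gene known to be induced when copper is low, had the largest fold difference between groups of these genes in RM11. It stood at 8.18, 8.18 and 7.45 TPM in RM11 in glycerol, at 153, 160.2 and 135 TPM in glucose, and at 54.2, 43.9 and 49.3 TPM in ethanol. Its lowest YJM975 library stood at 14.3 TPM, in ethanol, still above every RM11 glycerol library. The fall from glucose to glycerol in RM11 was 4.07 ± 0.08 (limma adjusted p = 2.38e-17), and 5 genes of 6309 fell more. FRE1, the main surface reductase for copper and iron, averaged 26.6 TPM in RM11 glycerol, 49.2 TPM in glucose and 37.1 TPM in ethanol. In YJM975 it was lowest in glucose instead, at 18.3 TPM, and averaged 40.8 and 40.7 TPM in glycerol and ethanol. MAC1, the gene of the copper-sensing activator of uptake, went from 31.2 to 21.9 TPM between glucose and glycerol in RM11, less than these 4 genes there (−0.49, limma adjusted p = 3.1e-06) and from 40.8 to 19.5 TPM in YJM975 (−1.03, limma adjusted p = 1.51e-10).

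**Figure D3:**
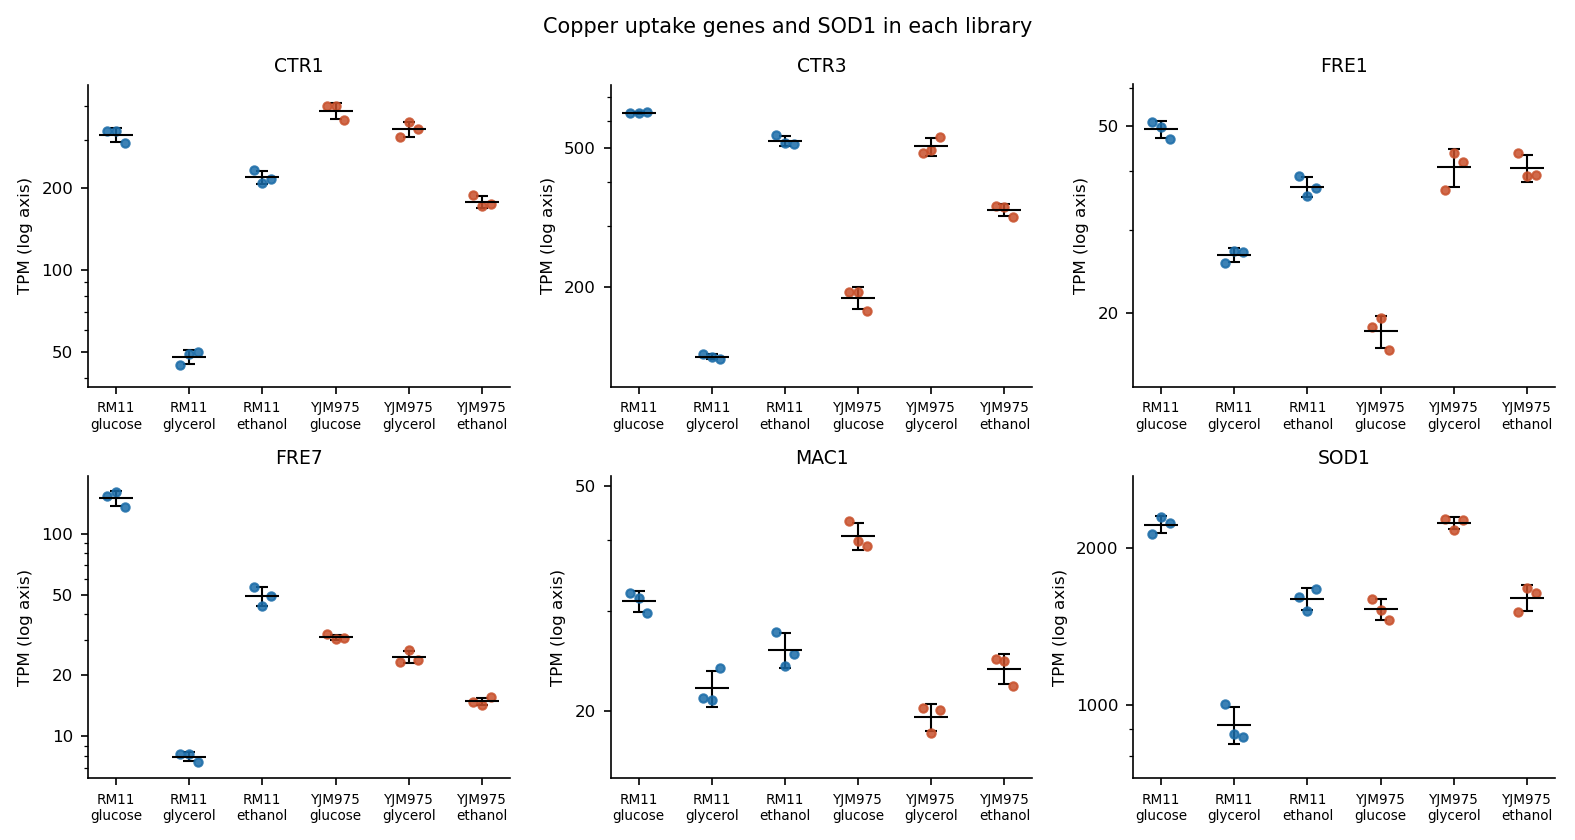
TPM in each library (points, log axes) of the copper uptake genes CTR1, CTR3, FRE1, FRE7 and MAC1 and of SOD1, with the mean and SD of 3 libraries per group (bars), for RM11 (blue) and YJM975 (orange). CTR1, CTR3, FRE7 and SOD1 were each lowest in RM11 glycerol, and FRE1 was lowest in YJM975 glucose.

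Of 8 tested genes of the uptake list, 7 fell and 1 rose from glucose to glycerol in RM11, where 28.7% of all genes were called lower, with a median of −1.26 against 0.23 for all genes, and 4 fell by 2-fold or more, against 7.24% of all genes. Those 4 were FRE7, CTR1, CTR3 and FRE2, a reductase mostly linked to iron. The gene that rose was IRC7, a cysteine metabolism gene known as a Mac1 target (0.80, limma adjusted p = 1.39e-07). From glycerol to ethanol in RM11, 6 of the 8 rose and 3 did so by 2-fold or more, against 21.4 and 2.88% of all genes. CTR2 (−0.13, limma adjusted p = 0.0257) and IRC7 (−0.278, limma adjusted p = 0.00754) fell, against 54.1% of all genes called lower. In YJM975, 3 rose and 4 fell from glucose to glycerol, against 41.2 and 42.6% of all genes (median −0.16). From glycerol to ethanol 3 rose and 3 fell there, against 64 and 13.1% of all genes (median −0.05, against 0.36 for all genes). FRE1 was not called in that comparison (0.00, limma adjusted p = 0.989) but was called lower under each of the 3 other scalings. REE1, a further gene of the list, was listed at 0 in every library.

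SOD1, the copper-zinc superoxide dismutase and a known Ace1 target, did not rise with CUP1. It stood at 1006, 880.3 and 869 TPM in RM11 in glycerol, at 2133, 2293 and 2236 TPM in glucose, and at 1613, 1516 and 1668 TPM in ethanol. In YJM975 the glycerol libraries were the highest instead, at 2272, 2169 and 2267 TPM. SOD1 fell from glucose to glycerol in RM11 by 1.28 ± 0.06 (limma adjusted p = 2.7e-12) and rose in YJM975 by 0.55 ± 0.06 (limma adjusted p = 1.93e-07), a difference between the strains of 1.82 ± 0.09 (limma adjusted p = 3.66e-12). The list holding SOD1 was chosen with earlier results of these data known, so that difference is no independent evidence. The 300-base window of SOD1 holds 2 matches to the Ace1 consensus.

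Of 6 tested genes of copper delivery in the cytosol and Golgi, SOD1 included, 4 fell and 1 rose from glucose to glycerol in RM11, and 3 rose and 2 fell in YJM975. Of all genes, 28.7% were called lower and 53% higher in RM11, and 41.2% higher and 42.6% lower in YJM975. ATX1, the chaperone that carries copper to the Golgi, fell in RM11 from 195 to 109 TPM (−0.83, limma adjusted p = 1.28e-07) and rose in YJM975 from 117 to 178 TPM (0.59, limma adjusted p = 8.1e-06). CCC2, the Golgi copper pump, and FET3, the multicopper oxidase of iron uptake, were both lower in ethanol than in glycerol in each strain. CCC2 changed by −1.21 in RM11 and −1.03 in YJM975, and FET3 by −1.27 and −1.71.

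Most genes of copper delivery to mitochondria fell from glucose to glycerol in each strain, a comparison that cannot be told apart from the run. In RM11, 8 of 9 fell, against 28.7% of all genes called lower, with a median of −1.22 against 0.23 for all genes. In YJM975, 7 of 9 fell, against 42.6% of all genes, with a median of −1.17 against −0.02. PIC2, a mitochondrial copper and phosphate carrier, fell by 2.79 ± 0.09 in RM11 (limma adjusted p = 8.29e-15) and by 1.78 ± 0.09 in YJM975 (limma adjusted p = 1.78e-12). COX17, the chaperone for cytochrome oxidase, fell by 1.72 and 1.31. COX23, a further assembly factor of that enzyme, fell most in YJM975, by 2.35 ± 0.07 (limma adjusted p = 3.5e-15), and by 0.90 in RM11. COX19, another such factor, rose in both, by 1.33 and 0.87. Within the run the strains differed: ethanol minus glycerol for COX17 was 0.87 in RM11 and −0.30 in YJM975. In that order it was −0.15 (not called) and −1.75 for PIC2, −0.07 (not called) and 0.30 for COX23, and −1.16 and −0.39 for COX19. Of 13 genes of metal tolerance and other metal transport, 4 rose and 6 fell from glucose to glycerol in RM11, and 5 rose and 6 fell in YJM975. Of all genes, 53% rose and 28.7% fell in RM11, and 41.2% rose and 42.6% fell in YJM975. FET4, a low-affinity transporter of iron and copper, fell most in YJM975, from 52.9 to 8.68 TPM (−2.48 ± 0.08, limma adjusted p = 6.05e-15), and was not called in RM11 (−0.04, limma adjusted p = 0.633). SMF3, a vacuolar iron transporter gene, fell by 1.22 in RM11 and by 1.69 in YJM975. CUP9, a repressor gene named for copper tolerance, went from 108.8 to 486 TPM in YJM975 (2.15, limma adjusted p = 4.85e-17) and from 479.8 to 351 TPM in RM11 (−0.45, limma adjusted p = 9.51e-08).

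**Figure D4:**
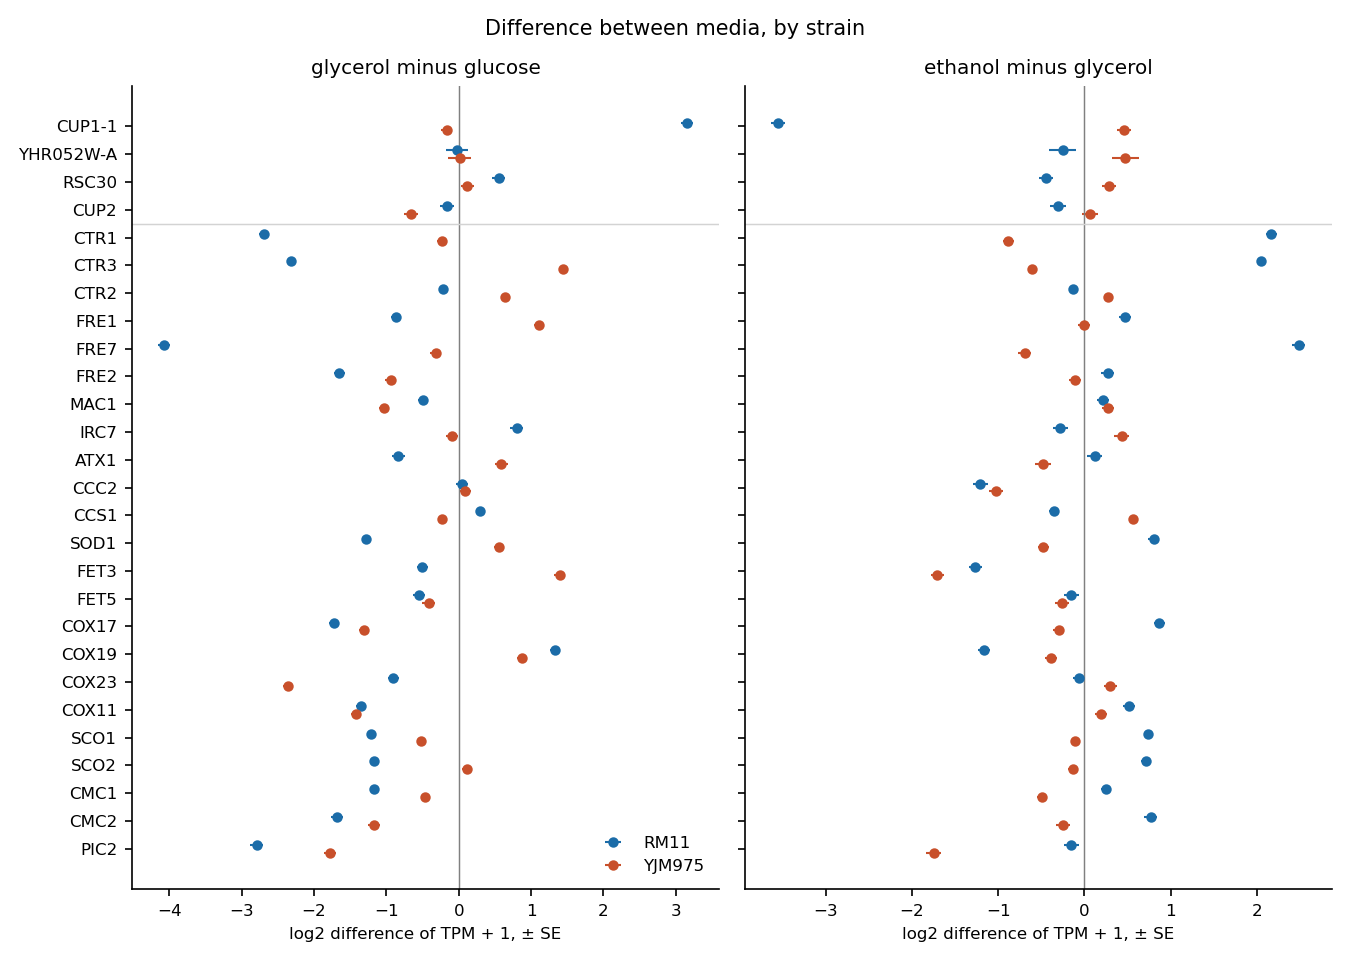
Log2 difference of TPM + 1 between media ± SE (x axis) for the distinct tested genes of the repeat and CUP2 (above the grey line) and the copper uptake and delivery lists (below it), in RM11 (blue) and YJM975 (orange), for glycerol minus glucose (left) and ethanol minus glycerol (right). CUP1-1 in RM11 stands at 3.15 and −3.55, on the side opposite to FRE7 (−4.07 and 2.48), CTR1 and CTR3.

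Genes next to the repeat moved in both directions. Of the 8 nearest tested genes, 4 on each side, 2 rose and 3 fell from glucose to glycerol in RM11, against 53% of all genes called higher and 28.7% lower (median −0.04, against 0.23 for all genes). CIC1, a ribosome assembly and proteasome-linked gene on the left, rose from 33.2 to 111 TPM in RM11 (1.71 ± 0.07, limma adjusted p = 1.97e-13) and fell to 30.7 TPM in ethanol. CPR2, a cyclophilin gene on the right beyond RSC30, averaged 109.7 TPM in the RM11 glucose libraries and 111 TPM in the glycerol libraries (0.02, limma adjusted p = 0.783). COX6, a cytochrome oxidase subunit gene, fell from 1033 to 443 TPM (−1.22, limma adjusted p = 1.64e-12).

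The genes whose log2(TPM + 1) was most like the summed CUP1 copies over the 18 libraries were HXK2 (Pearson r = 0.9698), SSP1 (0.9605), RCK1 (0.9581), CYC8 (0.9567) and YBR113W (0.9566). Each stood highest in RM11 glycerol, and the libraries share strain, medium and run, so no p is given. HXK2 averaged 71.3 TPM there against 1.79 to 5.26 TPM elsewhere, SSP1 6.52 TPM against 0.204 to 1.505 TPM, and CYC8, a general corepressor gene, 38.8 TPM against 14.5 to 19.6 TPM. RCK1 averaged 17.0 TPM in RM11 glycerol and 0.231 to 2.258 TPM elsewhere. SSP1 and RCK1 passed the filter on low values only through RM11 glycerol. For CUP2 the most alike were PHO4 (0.9378), YHR131W-A (0.9376), YJR018W (0.9253), DAS2 (0.9223) and PTR3 (0.9127). PHO4, the activator of phosphate genes, was highest in YJM975 glucose, at 145 ± 14.3 TPM, as CUP2 was.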

How the data were processed

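The deposited table holds TPM, transcript abundance scaled by length and library. The submitters' processing notes name kallisto. Its version, settings and transcript set were not given in the sources used here. This program divides reads among like transcripts, so identical copies receive equal values. Per the labels, the triplicates are biological.

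Genes averaging at least 1 TPM (6309 of 6612) entered a limma fit (version 3.58.1, R 4.3.3) of 6 group means over 18 libraries, on the scale log2(TPM + 1), with 12 residual degrees of freedom and the variance prior trended on abundance. P-values were adjusted over all genes tested, contrast by contrast, by Benjamini-Hochberg. The test was checked on simulated data. A fold change on the log2(TPM + 1) scale understates changes of low genes, and ratios of levels use mean TPM. Of the transcripts, 5929 matched R64 by locus name. Sequences were read from the RefSeq R64 genome, whose build may differ from the transcripts used by the authors.

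The genes described and the lists were chosen with earlier results of these data known. Named genes were all genes of the repeat and CUP2, of each list up to 4 of the called genes with the largest change in a contrast described, with other members where a count of 5 or fewer needs them, carbon source references, mating genes, the nearest neighbours and the 5 most alike genes. Tables and plots used Python 3.11.15, pandas 2.3.3, NumPy 2.4.6 and matplotlib 3.10.9. Alternatives were pseudocounts of 0.1 and 5 TPM, no filter or 10 TPM, 3 other scalings (rescaling without the 50 most abundant genes, quantile normalization, and centring on the library median), copies summed, only the groups compared, a replicate block, no trend, robust moderation, no glucose libraries, and each library left out.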

Additional observations from a re-analysis of the deposited data

Results flagged for a closer look

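Results of the repeat genes, CUP2, CTR1, CTR3, FRE1, FRE7 and SOD1 are listed here where the response to a medium differed between the strains. The measure is limma's test of that difference (YJM975 change minus RM11 change, log2 ± SE, Benjamini-Hochberg adjusted p below 0.05). Of all genes, 78.3% were called for glycerol minus glucose, 76.8% for ethanol minus glucose and 80.8% for ethanol minus glycerol, so a call by itself is common. Groups of 3 libraries are too small for a check of single outlying libraries.

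The repeat genes and CUP2 were chosen with their strain levels known, so their values and calls are a description and no independent evidence. CUP1-1 differed by −3.32 ± 0.11, 0.695 ± 0.11 and 4.015 ± 0.11 for glycerol minus glucose, ethanol minus glucose and ethanol minus glycerol. The short frame YHR052W-A differed by 0.761 ± 0.217 for ethanol minus glucose and 0.727 ± 0.217 for ethanol minus glycerol, but it was near 0 in every RM11 library, so these values measure no response in RM11. RSC30 differed by −0.429, 0.302 and 0.731 in the order given for CUP1-1. Its call for ethanol minus glucose was lost in 5 of the 18 fits without a single library (limma adjusted p 0.0534 to 0.104), and its sign turned with median centring and quantile normalization, to −0.17 and −0.367, as it did for ethanol minus glycerol, to −0.001 and −0.174. CUP2 differed by −0.499 for glycerol minus glucose and 0.37 for ethanol minus glycerol. The latter call was lost without the second or the third RM11 ethanol library or without the second YJM975 ethanol library (limma adjusted p 0.0504, 0.0687 and 0.0578), and its sign turned under each of the 3 other scalings, to between −0.362 and −0.019.

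In that same order, the transporter gene CTR1 differed by 2.461, −0.59 and −3.051 and CTR3 by 3.754, 1.101 and −2.653. The reductase gene FRE1 differed by 1.974, 1.504 and −0.47, and FRE7 by 3.755, 0.58 and −3.176. SOD1 differed by 1.825, 0.548 and −1.278. These genes come from lists chosen with earlier results of these data known, so their calls are no independent evidence either. For glycerol minus glucose, CTR1, CTR3, FRE1, FRE7 and SOD1 had the sign opposite to that of CUP1-1. Of the other called genes of the uptake list, MAC1 (−0.534) and IRC7 (−0.891) had the sign of CUP1-1 there. CTR2 (0.857) and FRE2 (0.711) had the opposite sign. With median centring, further calls for ethanol minus glucose were lost for CUP1-1 (0.224, limma adjusted p = 0.0588), YHR052W-A (0.289, 0.228) and SOD1 (0.076, 0.463). The differences of RSC30 and CUP2 for glycerol minus glucose were not called under any of the 3 other scalings, with limma adjusted p from 0.0722 to 0.127 and from 0.0906 to 0.106.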

How the results depend on the processing

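The CUP1-1 differences between RM11 glycerol and the other RM11 media, and their difference between strains for those pairs of media, kept their sign and their call under all alternatives run. Glycerol minus glucose in RM11 ranged from 2.874 to 3.345, and from 3.084 to 3.202 with each library left out. Without the glucose libraries, all 41 results that could be computed kept their call and direction. Counts of all genes called stayed within 1.5 times.

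The smaller results depended on the scaling, and the cause was not tested. Of the 4 distinct sets, the number called for ethanol minus glycerol in RM11 went from 3 to 1 with median centring and with quantile normalization. For ethanol minus glucose in RM11 it went from 2 to 4 with quantile normalization. The 4 include YHR052W-A, which reached at most 0.687 TPM in any RM11 library, so its call there measures no response. For ethanol minus glucose in YJM975 the number called went from 4 to 1 with median centring. For ethanol minus glycerol in YJM975 it went from 3 to 1 with median centring and with rescaling without the 50 most abundant genes. For glycerol minus glucose in YJM975 it went from 1 to 2 with median centring, with that rescaling and with only the groups compared, and was 1 to 2 with each library left out. For the differences between strains it went from 3 to 1 for glycerol minus glucose under all 3 other scalings, from 3 to 1 for ethanol minus glucose with median centring, and from 4 to 2, 1 and 2 for ethanol minus glycerol with median centring, quantile normalization and rescaling.

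Signs turned as follows. With median centring, CUP1-1 for ethanol minus glucose in YJM975 went to −0.147, CUP2 for ethanol minus glycerol in RM11 to 0.002, SOD1 for ethanol minus glucose in YJM975 to −0.367, and the YHR052W-A difference between strains for ethanol minus glycerol to −0.005. With median centring and quantile normalization, CUP2 for ethanol minus glycerol in YJM975 went to −0.36 and −0.264, and RSC30 in YJM975 to −0.035 and −0.196 for ethanol minus glucose and −0.138 and −0.219 for ethanol minus glycerol. The RSC30 difference between strains went to −0.17 and −0.367 for ethanol minus glucose and −0.001 and −0.174 for ethanol minus glycerol. That of CUP2 for ethanol minus glycerol went to −0.362 and −0.179, and to −0.019 with rescaling. The average YJM975 minus RM11 level, a description, went for CUP1-1 from −0.287 to 0.07 (median centring), −0.151 (rescaling) and −0.724 (glycerol and ethanol only), and for RSC30 from −0.127 to 0.229, 0.34 (quantile normalization) and 0.0 (rescaling). For CUP2 it went from 0.253 to 0.61, 0.483 and 0.389, and for YHR052W-A from 7.777 to 10.471 and 5.612 with pseudocounts of 0.1 and 5 TPM and to 8.133 and 8.531 with median centring and rescaling.

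Replicate numbers did not pair the samples: 4 of 45 same-numbered pairs correlated above 0.1, with a median r of −0.008, and 4 of 18 libraries correlated best with their own number. With the replicate number as a block, 2 of 4 sets of values were called for glycerol minus glucose in RM11 and 3 of 4 for ethanol minus glycerol, as without it, and none of 112 single-gene results changed its call. Depth is unknown in TPM, the short frames rest on values near 0 in RM11, and the split of reads among copies of the repeat could not be varied.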
